A study of Mus musculus with 18 samples.

Results

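Livers of A10-FMT mice were compared with livers of HS mice, with 3 RNA-seq libraries on each side (6 of the 18 libraries deposited), across the 10159 of 19057 listed genes whose mean reached 1 RPKM in the recipient experiment (12 libraries). All animals were ICR mice sampled at 10 weeks of age, and the study's methods give them as males. The comparison asks how liver expression in mice made diabetic by diet and STZ differs once microbiota shaped by AOS are transferred. HS mice received a high-fat diet and STZ, a compound toxic to insulin-producing cells. A10-FMT mice received the same diet and STZ and, in addition, gut microbiota from donor mice dosed with 10 mg/kg alginate oligosaccharide (AOS). Con-FMT mice, used here where a direct test against other recipients was needed, had the same diet and STZ and microbiota from donors given water in place of AOS. Per the methods, each inoculum was small-intestinal content pooled over donors, so the recipients of a group shared 1 pool, and the daily oral inoculations ended weeks before the livers were taken. The methods name no vehicle inoculation for HS, so the procedure and the microbiota cannot be told apart when A10-FMT is set against HS alone. Con mice had the regular diet, and 2 further groups had 10 mg/kg AOS on the regular diet (A10) or with the high-fat diet and STZ (HS+A10). The labels name 3 separate samples per group and do not say more, so the p-values measure the spread among these samples.

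Values are RPKM, the reads of a gene per kilobase of its length and of the library's size, as deposited. Changes are log2 differences, A10-FMT minus HS, on the log2(RPKM + 1) scale, which understates the change of low genes. The test was limma's, two-sided, with Benjamini-Hochberg adjustment over all tested genes, and "called" means past an adjusted p of 0.05. Defining hepatocyte mRNAs (Alb, Apoa1, Ttr and 5 others) summed to 35401 to 41227 RPKM in HS and 38679.6 to 48872 RPKM in A10-FMT, as liver samples should hold. RPKM sums were 692818 to 739410 in HS and 738216 to 803820 in A10-FMT, and low-value steps put the relative depth at 0.951 to 0.956 and 0.992 to 1.04 of the mean of all libraries. Absolute read numbers are not known, which leaves single values without a counting interval. The 10 most abundant genes held 29.5% to 32.7% of all RPKM in HS and 35.1% to 41.3% in A10-FMT, and the tested genes had a median of 8.03 to 8.27 RPKM in HS and 6.72 to 7.68 in A10-FMT. Changes are therefore also given after median scaling, which sets the median of the tested genes equal in all libraries.

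Of the 10159 genes, 1672 (16.5%) differed. In A10-FMT 174 (1.71%) were higher and 1498 (14.7%) lower, while over all genes the log2 change had a median of -0.16. Median scaling left 727 calls (7.16%), of which 396 (3.9%) were higher and 331 (3.26%) lower. Setting the medians equal brings the directions near balance by itself, and scalings that do not do so kept an excess of lower calls, with 177 higher and 705 lower after scaling without the 10 most abundant genes and 224 and 696 after scaling without the major urinary proteins. The median change of all genes was still -0.11 and -0.09 under these scalings. Whether the excess goes beyond that shift was not tested. On both scales 170 genes (1.67%) were higher and 331 (3.26%) lower. A change of at least 1 on the log2 scale was reached by 52 of the genes called higher and 85 of those called lower, and one of at least 2 by 7 and 11. The groups did not overlap for 3810 genes (37.5%), with the A10-FMT libraries above all HS libraries for 469 (4.62%) and below them for 3341 (32.9%). Calls on both scales without overlap numbered 167 (1.64%) higher and 331 (3.26%) lower. Single libraries carried much of the count. The number called higher was 109, 87 and 98 without A10-FMT replicates 1, 2 and 3 and 148, 100 and 94 without HS replicates 1, 2 and 3. The number called lower was 1531, 472 and 577, and 1389, 616 and 653, in the same order. Con replicate 3 enters through the shared variance estimate. On 142 genes Con replicates 1 and 2 differed by at least 1 on the log2(RPKM + 1) scale, and Con replicate 3 lay between them for 98.6%. The like share was 55.9% to 74.7% for the HS replicates and 60.3% to 70.8% for the A10-FMT replicates. Without Con replicate 3, 122 genes were called higher and 981 lower.

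**Figure D1:**
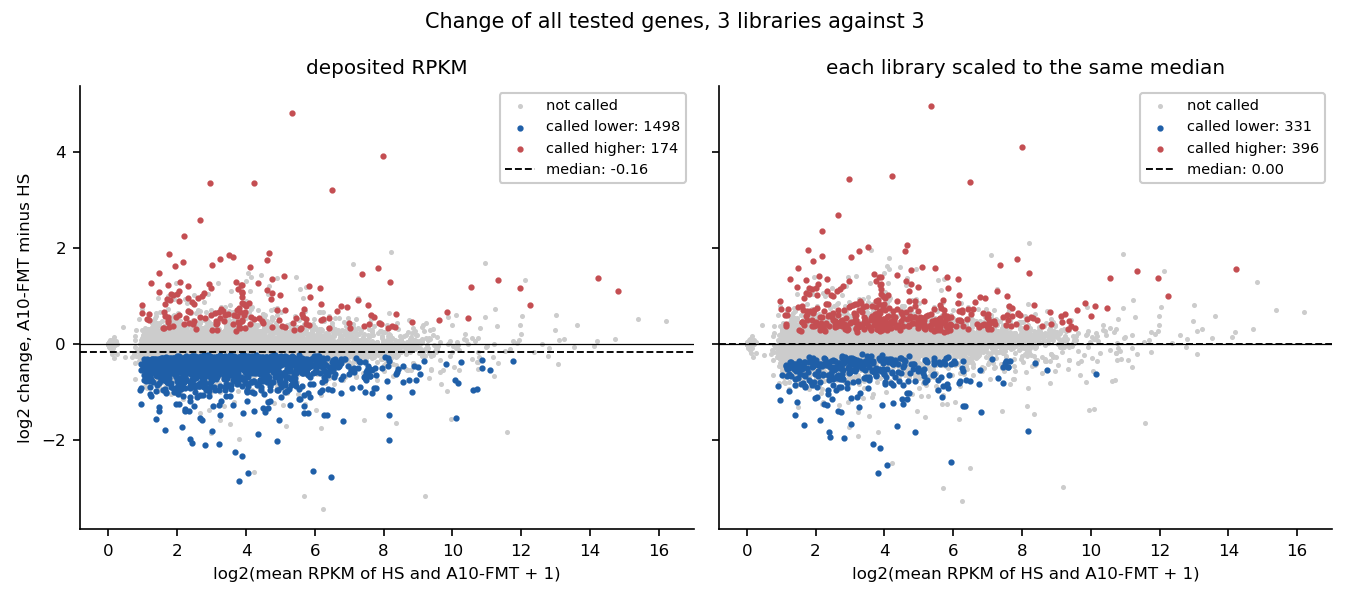
Each point is 1 of 10159 tested genes, with the log2 of its mean RPKM (plus 1) on the x axis and its log2 change, A10-FMT minus HS, on the y axis, for deposited RPKM (left) and after median scaling (right). Colored points were called (174 higher and 1498 lower on the left, 396 and 331 on the right), and the dashed line is the median of all genes, -0.16 on the deposited scale.

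The circadian clock held the largest increase of a gene called on both scales, in Dbp. In liver, ARNTL (BMAL1) with CLOCK or NPAS2 activates genes that carry E-boxes, among them period, cryptochrome and REV-ERB genes, whose products then hold the activators down. The PAR bZIP factors DBP, TEF and HLF act through D-boxes, where NFIL3 opposes them, and pass the rhythm on to metabolic genes. The mRNAs of these genes rise and fall in the course of a day. No hour of collection per library is given in the sources used here, so hour and treatment cannot be told apart.

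Of the 27 clock genes tested on 3 lists, 10 rose (1.71% of all genes were called higher) and 6 fell (14.7% of all genes) in A10-FMT. Arntl, Clock and Npas2 fell, and the PAR bZIP factors and 4 repressors rose. Among 7 activators and nuclear receptors, 1 was higher and 3 lower (median log2 change -0.36, and -0.20 after median scaling). Among 10 period, cryptochrome and other repressor genes, 4 were higher and 2 lower (median 0.81, scaled 0.97), and among 10 output factors and enzymes 5 were higher and 1 lower (median 0.70, scaled 0.87). After median scaling the counts were 2 and 3, 5 and 0, and 5 and 0, since Cry1, Csnk1d and Nfil3 lost their call and 2 further genes gained one.

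Ciart, Tef and Per3 are shown by sequence because E-boxes or D-boxes lay near their starts. The lines give the 250 bases before a RefSeq transcript start (GRCm38.p6), with each E-box (CACGTG) or D-box (TTATGTAA, TTACATAA or TTACGTAA) in capitals. CACGTG and TTACGTAA read the same on both strands, TTATGTAA and TTACATAA are each other's reverse complement, and no E-box overlaps a D-box.
Ciart (chr3:95882229-95882478, minus strand): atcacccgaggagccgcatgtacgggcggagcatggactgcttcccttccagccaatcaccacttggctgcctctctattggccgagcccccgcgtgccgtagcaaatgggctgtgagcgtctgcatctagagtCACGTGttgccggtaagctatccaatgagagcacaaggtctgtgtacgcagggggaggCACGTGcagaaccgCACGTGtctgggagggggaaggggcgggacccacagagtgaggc
Tef, downstream start (chr15:81811164-81811413, plus strand): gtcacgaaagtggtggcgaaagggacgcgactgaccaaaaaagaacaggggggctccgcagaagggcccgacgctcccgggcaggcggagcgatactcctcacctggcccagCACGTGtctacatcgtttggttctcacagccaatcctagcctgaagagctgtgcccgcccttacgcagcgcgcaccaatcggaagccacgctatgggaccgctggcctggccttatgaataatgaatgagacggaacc
Per3 (chr4:151044666-151044915, minus strand): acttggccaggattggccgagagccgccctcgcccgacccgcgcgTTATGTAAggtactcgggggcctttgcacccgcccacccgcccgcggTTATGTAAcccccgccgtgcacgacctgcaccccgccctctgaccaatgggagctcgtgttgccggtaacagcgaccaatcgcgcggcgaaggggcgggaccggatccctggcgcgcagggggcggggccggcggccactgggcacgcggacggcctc

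The Ciart window held 3 E-boxes, whose first bases lay 116, 58 and 44 bases before the start. Tef held 1 in each of its 2 windows, 127 and 138 bases before the start, and Per3 held 2 D-boxes, 205 and 158 bases before it. Of the 10 clock genes called higher, 9 had a promoter entry, 2 of these held an E-box and 1 held a D-box. The windows of Dbp, Usp2, Nr1d2, Cry2, Hlf and Nampt held neither. Of the 6 called lower, 5 had an entry, and Cry1 held an E-box 60 bases before its start. Counted by start rather than by gene, 3 of 10 windows of the genes called higher held an E-box and 1 a D-box. For the genes called lower it was 1 of 8 and 0. Over all 32851 promoters, also counted by start, 6.02% held an E-box and 0.931% a D-box in the same window. A match is a description of these letters and no measure of binding.

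Dbp (chromosome 7, 45705100 to 45710203) was at 1.79, 2.22 and 1.17 RPKM in the HS libraries and 98.8, 48.8 and 86.2 RPKM in A10-FMT. Every A10-FMT library stood far above every HS library, and the ratio of the means was 45.1. The log2 change was 4.81 (SE 0.22, adjusted p = 1.26e-06) and, over 14 alternative settings, 4.61 to 5.40. Tef, another PAR bZIP factor, rose from 9.88, 10.6 and 8.36 to 46.03, 30.4 and 40.02 RPKM, a log2 change of 1.89 (SE 0.22, adjusted p = 0.00145). Hlf, the remaining member of that family, rose less, from 6.71, 6.92 and 5.29 to 12.5, 10.8 and 10.1 RPKM, a log2 change of 0.74 (SE 0.15, adjusted p = 0.0119). Groups did not overlap for either gene. Nfil3, the repressor that competes for the same D-boxes, was at 14.8, 19.6 and 30.7 RPKM in HS and 7.89, 14.01 and 5.50 in A10-FMT, lower in every A10-FMT library, with a log2 change of -1.19 (SE 0.31, adjusted p = 0.0269) and, after median scaling, -1.01 (adjusted p = 0.0726).

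Ciart (chromosome 3, 95878500 to 95882257), a repressor of CLOCK and ARNTL, rose from 0.32, 0.42 and 0.32 to 17.9, 8.82 and 13.2 RPKM, a log2 change of 3.35 (SE 0.19, adjusted p = 6.61e-06). Per3, a period gene, rose from 0.32, 0.69 and 0.7 to 8.12, 4.46 and 7.25 RPKM, a log2 change of 2.25 (SE 0.27, adjusted p = 0.00156). Both were under 1 RPKM in each HS library and at 4.46 RPKM or more in each A10-FMT library. Cry2 rose by 0.61 (adjusted p = 0.0205) and Bhlhe40 by 1.35 (adjusted p = 0.0221), with no overlap. Per1 and Per2 were not called. Per1 was at 1.31, 4.09 and 2.78 RPKM in HS and 6.49, 4.01 and 8.87 in A10-FMT (log2 change 1.02, adjusted p = 0.0646), with overlap. Per2 was at 1.89, 3.85 and 4.63 and 7.47, 5.44 and 11.6 RPKM (log2 change 1.04, adjusted p = 0.075), above HS in each A10-FMT library. Cry1, the other cryptochrome, went the opposite way to Cry2, from 5.73, 5.26 and 6.78 to 3.41, 3.20 and 3.16 RPKM, with a log2 change of -0.70 (adjusted p = 0.0346) and -0.54 (adjusted p = 0.0947) after median scaling. Csnk1d, a kinase of the period proteins, had a change of -0.33 (adjusted p = 0.0253), and -0.15 (adjusted p = 0.178) after scaling.

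Arntl (chromosome 7, 113178471 to 113314126) fell from 8.84, 8.86 and 13.4 to 1.22, 3.11 and 0.91 RPKM, a log2 change of -2.11 (SE 0.36, adjusted p = 0.00522). Clock fell from 6.14, 6.91 and 6.87 to 2.69, 3.39 and 2.37 RPKM (log2 change -1.01, SE 0.11, adjusted p = 0.00134), and Npas2 from 1.85, 1.48 and 1.87 to 0.03, 0.41 and 0.03 RPKM (log2 change -1.25, SE 0.18, adjusted p = 0.00282). The activators were lower in each A10-FMT library than in any HS library, and they stayed called after median scaling. Of the nuclear receptors that act on Arntl, Nr1d2 (REV-ERB beta) rose from 8.88, 8.41 and 8.18 to 22.4, 16.04 and 19.04 RPKM (log2 change 1.08, SE 0.17, adjusted p = 0.00369). Nr1d1 (REV-ERB alpha) was higher in every A10-FMT library but was not called (log2 change 0.75, adjusted p = 0.12). Rora was not called (log2 change -0.36, adjusted p = 0.0698).

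Among output enzymes, Usp2 (chromosome 9, 44067021 to 44095627), a deubiquitinase, rose from 0.56, 1.28 and 0.64 to 9.61, 8.91 and 10.8 RPKM (log2 change 2.58, SE 0.21, adjusted p = 2.26e-04), without overlap. Nampt, the rate-limiting enzyme of NAD salvage, rose from 10.2, 9.87 and 10.1 to 18.4, 17.4 and 14.04 RPKM (log2 change 0.66, SE 0.11, adjusted p = 0.00428). Noct (log2 change 1.10, adjusted p = 0.12), Alas1 (log2 change 0.32, adjusted p = 0.653), Por (log2 change 0.55, adjusted p = 0.169) and Tspan4 (log2 change 0.10, adjusted p = 0.709) were not called. Wee1, a kinase that delays mitosis and is driven by the clock in liver, rose from 0.79, 0.9 and 0.87 to 5.55, 4.22 and 4.45 RPKM (log2 change 1.62, SE 0.21, adjusted p = 0.00186). Bhlhe41 fell under the expression minimum, at 0.24, 0.17 and 0.12 RPKM in HS and 1.34, 0.6 and 1.61 in A10-FMT, and was not tested.

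For Dbp and Arntl the other groups split between the HS level and the A10-FMT level. Dbp was at 0.66, 0.58 and 0.68 RPKM in Con and 3.41, 0.36 and 1.78 in A10, near HS, and at 51.8, 55.5 and 52.99 in Con-FMT and 97.5, 47.3 and 52.8 in HS+A10, near A10-FMT. Arntl was at 10.1, 12.9 and 12.2 RPKM in Con and 11.2, 12.7 and 11.8 in A10, against 4.92, 1.26 and 1.59 in Con-FMT and 0.7, 2.97 and 2.65 in HS+A10. By these genes HS lay beside the regular-diet groups, and A10-FMT lay beside the other groups on the high-fat diet and STZ. Tested directly, A10-FMT and Con-FMT differed in 3 of the 27 clock genes. Hlf was higher in A10-FMT by 0.81 (SE 0.15, adjusted p = 0.00667), Nampt differed by -0.66 (SE 0.11, adjusted p = 0.00341) and Nfil3 by -1.47 (SE 0.31, adjusted p = 0.0113), where 13.8% of all genes were called. In Hlf, Con-FMT was at 7.10, 4.31 and 6.65 RPKM and HS+A10 at 13.0, 10.7 and 11.3, and in Nfil3 at 24.9, 19.9 and 33.3 and 5.10, 7.94 and 7.81, so that for these genes Con-FMT lay near HS and HS+A10 near A10-FMT. For Dbp that difference was 0.48 (SE 0.22, adjusted p = 0.173), with a 95% interval of -0.0011 to 0.95, and for Arntl -0.33 (SE 0.36, adjusted p = 0.589), with -1.11 to 0.45.

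**Figure D2:**
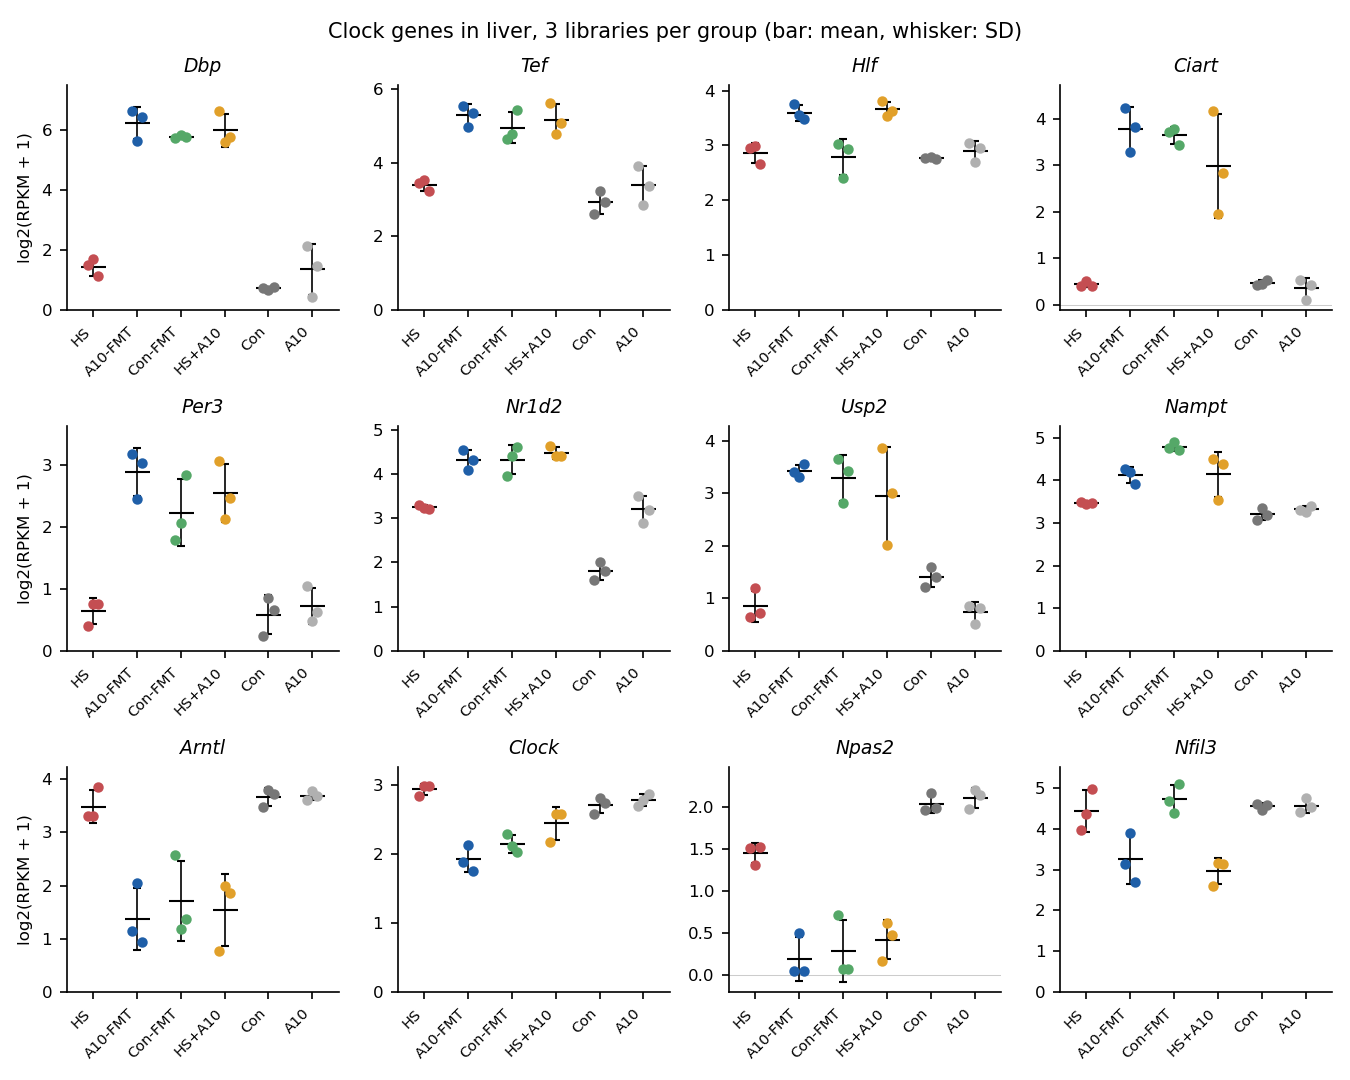
Each panel shows 1 clock gene as log2(RPKM + 1) on the y axis for 6 groups of 3 libraries on the x axis, with points for libraries, bars for means and whiskers for SD. In Dbp, Tef, Ciart, Per3, Nr1d2 and Usp2 the HS points lie below those of A10-FMT, Con-FMT and HS+A10, and in Arntl, Clock and Npas2 they lie above them. Dbp is at 1.17 to 2.22 RPKM in HS and 48.8 to 98.8 RPKM in A10-FMT.

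Several targets of p53 were lower in A10-FMT. p53 is a transcription factor that answers DNA damage and other stress by halting the cell cycle and, at high activity, by triggering apoptosis. Of 19 tested targets, 10 were called lower and 0 higher, where 14.7% of all genes were called lower. Their median log2 change was -0.58 beside -0.16 for all genes. After median scaling 6 were called lower (median -0.40), beside 3.26% of all genes. The lower calls were 10, 7 and 7 without A10-FMT replicates 1, 2 and 3 in turn and 7, 7 and 9 without HS replicates 1, 2 and 3. Cdkn1a (chromosome 17, 29090979 to 29100722), which encodes the cell cycle inhibitor p21, fell from 34.9, 29.7 and 19.8 to 3.82, 2.89 and 3.57 RPKM (log2 change -2.69, SE 0.27, adjusted p = 9.43e-04). Gdf15, a secreted stress hormone that ATF4 also drives, fell from 15.7, 10.8 and 8.60 to 2.27, 3.16 and 2.12 RPKM (log2 change -1.83, SE 0.28, adjusted p = 0.00326). Neither gene overlapped between the groups. Aen, an apoptosis-enhancing nuclease, fell by 0.75 (adjusted p = 0.00252) on the log2 scale, Phlda3 by 1.26 (adjusted p = 0.00968), Zmat3 by 0.63 (adjusted p = 0.00664) and Bbc3, the BH3-only protein PUMA, by 0.72 (adjusted p = 0.0416). Against Con-FMT, too, 8 of the 19 were lower in A10-FMT and 0 higher, on both scales, where 8.94% of all genes were called lower. Cdkn1a differed by -2.16 (SE 0.27, adjusted p = 0.00116), Gdf15 by -2.06 (SE 0.28, adjusted p = 0.00148) and Aen by -0.70 (SE 0.11, adjusted p = 0.00266). Without Con-FMT replicate 3, in which pancreatic enzyme mRNAs took 2.79% of all RPKM, 6 of the 19 were called lower than Con-FMT.

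Of 17 tested BCL2 family members and caspases, 1 was called higher and 1 lower, where 1.71% of all genes were called higher and 14.7% lower. Bmf (chromosome 2, 118528757 to 118549686), a BH3-only protein that promotes apoptosis, was at 0.56, 0.35 and 0.51 RPKM in HS and 4.60, 4.43 and 4.12 in A10-FMT (log2 change 1.87, SE 0.19, adjusted p = 9.43e-04), 9.26 times the HS mean. It was at 0.35, 0.36 and 1.28 RPKM in Con-FMT and 0.65, 0.85 and 1.20 in Con, so that A10-FMT stood apart from the 3 other groups of the recipient experiment, and the difference from Con-FMT was 1.74 (SE 0.19, adjusted p = 5.96e-04). HS+A10 was at 2.55, 3.03 and 1.72 RPKM and A10 at 1.91, 1.91 and 1.72. Bax, a p53 target that permeabilizes mitochondria, had a change of -0.63 (adjusted p = 0.0273), which median scaling ended (log2 change -0.45, adjusted p = 0.144), with adjusted p from 0.00875 to 0.144 over the alternatives.

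Chaperones of the endoplasmic reticulum (ER), which fold secreted and membrane proteins and are induced when unfolded proteins build up there, were lower as a group on the deposited scale. Of 24 genes, 17 were called lower and 1 higher (median -0.64), where 14.7% of all genes were called lower. After median scaling 4 were lower and 1 higher (median -0.45), beside 3.26% of all genes called lower. Leaving out each A10-FMT replicate in turn gave 13, 5 and 15 lower calls, and each HS replicate gave 19, 6 and 6. There were 14 without Con replicate 3. Hspa5 (BiP), the main chaperone of the compartment, was at 232, 499 and 444 RPKM in HS and 168, 123 and 249 in A10-FMT (log2 change -1.10, SE 0.30, adjusted p = 0.0304), and the groups overlapped. Creld2 fell from 23.04, 63.2 and 51.1 to 12.1, 8.90 and 22.03 RPKM (log2 change -1.59, SE 0.39, adjusted p = 0.0228) and Sdf2l1 from 18.4, 48.2 and 33.7 to 7.74, 11.7 and 14.3 RPKM (log2 change -1.43, SE 0.29, adjusted p = 0.0121), without overlap. Derl3, a component of ER-associated degradation, was the member that rose, from 0.86, 2.23 and 1.29 to 6.84, 5.55 and 2.88 RPKM (log2 change 1.29, SE 0.32, adjusted p = 0.023). Xbp1, a transcription factor of the unfolded protein response, was not called (log2 change 0.07, adjusted p = 0.703). Against Con-FMT, 22 of the 24 genes were lower in A10-FMT and 0 higher, 20 lower after median scaling, and 20 lower without Con-FMT replicate 3. The shares of all genes called lower than Con-FMT were 8.94%, 6.77% and 6.85% in these settings. Derl3 was among those lower than in Con-FMT, at -1.27 (SE 0.32, adjusted p = 0.0232).

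Of 20 cytosolic heat shock proteins and co-chaperones, 5 were called lower (Hspa4l, Hspe1, Ahsa1, St13 and Hspa4), 0 higher, and 0 either way after median scaling. The lower calls were 1 without A10-FMT replicate 2 or HS replicate 3, 3 without A10-FMT replicate 1, HS replicate 2 or Con replicate 3 and 9 without HS replicate 1, and 14.7% of all genes were called lower. The inducible Hspa1a (log2 change 0.61, adjusted p = 0.631) and Hspa1b (log2 change 0.51, adjusted p = 0.698) were not called. Of 22 genes of the ATF4 response, which couples amino acid shortage to transcription, 5 were lower, among them Atf5 at -0.92 (adjusted p = 0.014) and the tRNA synthetases Nars, Wars and Gars, and after median scaling 1 was lower (Gdf15) and 1 higher (Trib3). Without A10-FMT replicate 2 or HS replicate 2, 3 were lower.

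Interferon-stimulated genes, which cells switch on under type I or type II interferon and whose products block virus replication, all had changes below that of the median gene. Of 29 tested, 14 were called lower and 0 higher (median -0.80, the lowest of the 36 lists), and 5 lower after median scaling (median -0.66). The shares of all genes called lower were 14.7% and, after median scaling, 3.26%. For 23 of the 29 each A10-FMT library lay below each HS library, where 32.9% of all genes did. Without A10-FMT replicates 1, 2 and 3 in turn 13, 10 and 9 were called lower, and 13, 17 and 8 were without HS replicates 1, 2 and 3. Usp18, a protease that removes ISG15 from proteins, fell from 9.44, 8.07 and 9.25 to 1.85, 2.40 and 2.76 RPKM (log2 change -1.58, SE 0.26, adjusted p = 0.00467). Isg15 itself fell from 22.9, 16.4 and 24.3 to 6.29, 7.70 and 7.24 RPKM (log2 change -1.45, SE 0.30, adjusted p = 0.0119), and Rsad2 (viperin) from 2.33, 1.54 and 2.72 to 0.42, 0.6 and 0.44 RPKM (log2 change -1.09, SE 0.14, adjusted p = 0.00186). These genes did not overlap between the groups and stayed called after median scaling. Irf7 (log2 change -1.20, adjusted p = 0.0891) and Cxcl10 (log2 change -0.80, adjusted p = 0.316) were not called. Against Con-FMT, 2 of the 29 were lower, among them Rsad2 at -0.56 (SE 0.14, adjusted p = 0.0231), and 1 was higher. Of all genes 8.94% were called lower and 4.85% higher in that comparison. After median scaling 1 of the 29 was lower and 1 higher, beside 6.77% and 9.21% of all genes. Of 18 MHC and antigen presentation genes, 1 (Tap2, log2 change -0.49, adjusted p = 0.0479) was called, and their median was -0.45.

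Markers of Kupffer cells, the resident macrophages of liver, were lower in sum in A10-FMT, like the interferon-stimulated genes. All 11 were measured, and they summed to 150.3 to 239 RPKM in HS and 94.0 to 115 in A10-FMT, without overlap. Among single genes, 32.9% of all tested lay below HS in this way. Of these, 6 were called lower (Marco, C1qa, C1qb, C1qc, Clec4f and Adgre1), with a median of -0.75, and 1 (Marco) after median scaling. The shares of all genes called lower were 14.7% and 3.26% on these scales. The lower calls were 5, 0 and 0 without A10-FMT replicates 1, 2 and 3 in turn and 4, 5 and 0 without HS replicates 1, 2 and 3. Against Con-FMT, 0 of the 11 were called, where 13.8% of all genes were. Clec4f, found in Kupffer cells alone among liver cells, was at 26.3, 18.9 and 31.9 RPKM in HS and 15.3, 14.7 and 13.6 in A10-FMT (log2 change -0.75, adjusted p = 0.0189, and -0.57 after median scaling, adjusted p = 0.0995). Marco, a scavenger receptor, was at 7.01, 4.02 and 12.4 and 1.37, 0.86 and 0.67 RPKM (log2 change -2.07, SE 0.47, adjusted p = 0.0182), a call lost without A10-FMT replicate 2 or 3 or HS replicate 3 (log2 change -2.80 to -1.70 and adjusted p up to 0.0624 over the alternatives). In bulk tissue, fewer cells of a type and less RNA per cell cannot be told apart. Erythroid mRNAs differed more. All 8 markers were measured and summed to 4435 to 12415 RPKM in HS and 1692 to 2625 in A10-FMT, although 0 of the 6 tested were called. Endothelial markers summed to 54.3 to 62.8 and 40.4 to 52.4 RPKM, stellate cell markers to 124 to 203 and 103 to 128, cholangiocyte markers to 26.3 to 46.9 and 26.1 to 38.1, T and NK cell markers to 3.00 to 3.53 and 2.30 to 2.75, B and plasma cell markers to 1.33 to 2.38 and 1.15 to 1.74, and neutrophil markers to 1.87 to 5.74 and 1.20 to 2.48. Pancreatic enzyme mRNAs summed to 14.2 to 27.6 RPKM in HS and 32.2 to 37.8 in A10-FMT, and adipocyte markers to 0.14 to 0.2 and 0 to 0.22. The erythroid, endothelial and T and NK cell sums thus also lay below HS without overlap, and the pancreatic sums above it. The part of these cell types in the interferon result was not tested.

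**Figure D3:**
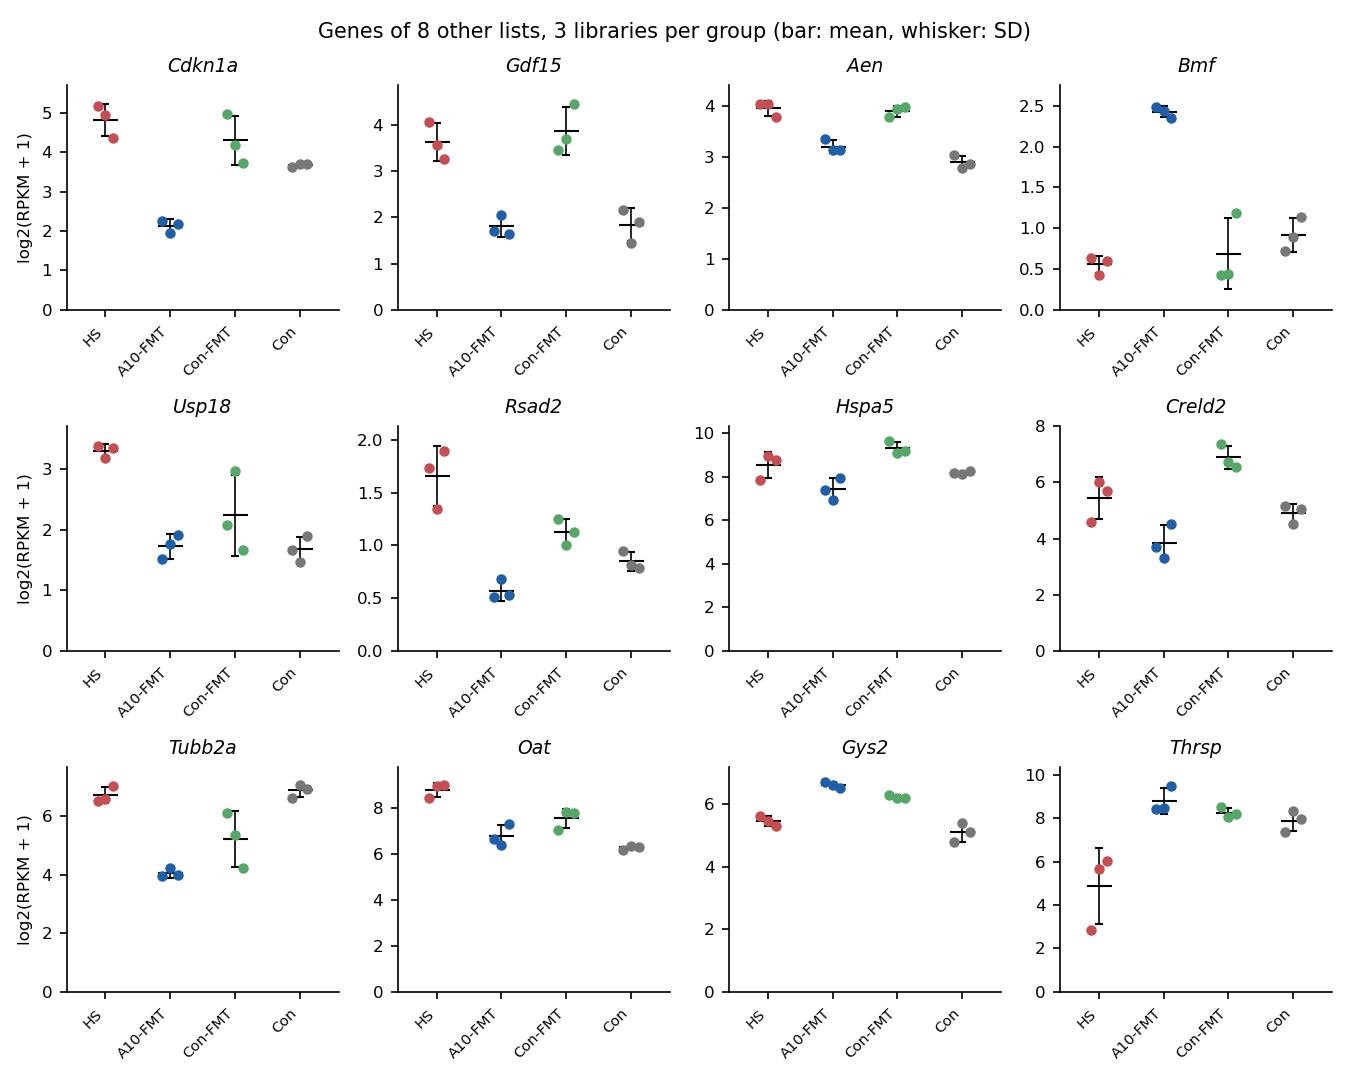
Each panel shows 1 gene as log2(RPKM + 1) on the y axis for HS, A10-FMT, Con-FMT and Con on the x axis, with points for the 3 libraries of a group, bars for means and whiskers for SD. Bmf is at 4.12 to 4.60 RPKM in A10-FMT and at most 1.28 RPKM in the other 3 groups, and Cdkn1a, Gdf15 and Aen are lower in A10-FMT than in HS and Con-FMT.

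Of 28 genes of gluconeogenesis, glycolysis and glycogen, 4 were called higher and 6 lower (median -0.16), and 6 and 3 after median scaling. Among all genes 1.71% were called higher and 14.7% lower, and 3.9% and 3.26% after median scaling. Leaving out 1 library gave 1 to 5 higher and 3 to 5 lower calls, with 1 higher without A10-FMT replicate 3 or HS replicate 1 or 3, and 3 lower without A10-FMT replicate 2 or 3. Gys2 (chromosome 6, 142422612 to 142473130), the liver glycogen synthase, rose from 47.8, 42.9 and 37.9 to 102, 96.2 and 90.8 RPKM (log2 change 1.16, SE 0.14, adjusted p = 0.00156), without overlap. Ugp2, which makes the UDP-glucose it uses, rose by 0.43 (adjusted p = 0.0457). Pklr, the liver pyruvate kinase, rose from 21.6, 45.5 and 35.1 to 76.4, 64.5 and 93.1 RPKM (log2 change 1.22, SE 0.30, adjusted p = 0.0235), and Pfkfb3, which activates phosphofructokinase, from 2.01, 5.23 and 2.66 to 5.35, 6.37 and 18.4 RPKM (log2 change 1.24, SE 0.36, adjusted p = 0.0399, and 1.40 after median scaling, adjusted p = 0.0529). Lower were the glucose transporter Slc2a1 (log2 change -0.75, adjusted p = 0.00564) and the glycolytic enzymes Pgam1 (log2 change -0.66, adjusted p = 0.0141), Tpi1 (log2 change -0.54, adjusted p = 0.00663), Pgk1 (log2 change -0.50, adjusted p = 0.0147) and Gapdh (log2 change -0.38, adjusted p = 0.0189), as well as Pck1 (log2 change -0.41, adjusted p = 0.0486), the gluconeogenic PEPCK. Of these, Slc2a1, Tpi1 and Pgk1 stayed called after median scaling.

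Of 21 lipogenic genes (fatty acids and triglyceride), 3 were higher and 3 lower (median -0.08), and 4 and 0 after median scaling. The share called lower was near the 14.7% of all genes called lower, and 1.71% of all genes were called higher. Lower calls numbered 0 without HS replicate 2 and 1 without any 1 A10-FMT replicate, HS replicate 3 or Con replicate 3. Thrsp (chromosome 7, 97412933 to 97417550), a regulator of lipogenesis, rose from 6.19, 49.96 and 65.2 to 338, 357 and 704 RPKM (log2 change 3.93, SE 0.67, adjusted p = 0.00534), and the HS libraries themselves spanned a wide range. Dgat2, which makes triglyceride, rose from 119.9, 139 and 146 to 249, 212 and 255 RPKM (log2 change 0.82, SE 0.11, adjusted p = 0.00221), and Mlxipl, the carbohydrate-sensing factor ChREBP, by 0.53 (adjusted p = 0.0399). Acacb, which makes the malonyl-CoA that restrains fatty acid oxidation, was lower (log2 change -1.08, adjusted p = 0.0492), with overlap, and so were Elovl5 (log2 change -0.93, adjusted p = 0.0413), an elongase of polyunsaturated fatty acids, and Agpat2 (log2 change -0.36, adjusted p = 0.0198). None of these 3 was called after median scaling. Scd1 (log2 change -1.03, adjusted p = 0.308), Fasn (log2 change -0.02, adjusted p = 0.987) and Srebf1 (log2 change 0.68, adjusted p = 0.122) were not called. Of 25 genes of cholesterol synthesis and uptake, 0 were called, with a median of -0.47 (-0.29 after scaling) and 23 below the all-gene median. Leaving out each A10-FMT replicate in turn gave 0, 0 and 0 lower calls, and each HS replicate gave 15, 0 and 0.

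Of 28 beta-oxidation genes 0 were higher and 1 lower (median -0.06), and of 18 retinoid genes 0 and 1 (Aldh1a7, log2 change -1.20, adjusted p = 0.00501). Of 8 LXR receptors and targets, 0 were called. Of 23 PPAR alpha genes, 5 were lower (14.7% of all genes were) and 0 higher. The lower calls were 1 without A10-FMT replicate 3 and 2 without A10-FMT replicate 2, HS replicate 1 or 2 or Con replicate 3. Among the 5 were Cyp4a10, whose reads a family of similar genes could share (241, 182 and 35.5 RPKM in HS and 48.1, 16.4 and 4.99 in A10-FMT, overlapping, log2 change -2.77, adjusted p = 0.0479), and Plin5, a lipid droplet coat protein (log2 change -1.03, adjusted p = 0.0115). Plin5 was the member still called after median scaling. Of 22 bile acid genes, Akr1c6 (log2 change 0.65, adjusted p = 0.0058) and the uptake transporter Slco1b2 (log2 change 0.33, adjusted p = 0.0493) were higher, and Abcb11, the bile salt export pump, was lower, from 87.7, 106 and 98.99 to 57.1, 68.5 and 47.97 RPKM (log2 change -0.75, SE 0.12, adjusted p = 0.00435), on both scales.

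Amino acid catabolism was lower in part. Of 35 genes of the urea cycle and amino acid breakdown, 13 were called lower and 0 higher (median -0.41), and 6 lower and 3 higher after median scaling. Among all genes 14.7% were called lower, and 3.26% after median scaling. Without A10-FMT replicates 1, 2 and 3 in turn 11, 6 and 7 were called lower, and 14, 9 and 6 were without HS replicates 1, 2 and 3. Oat, which links ornithine to glutamate and proline, fell from 353, 505 and 514 to 101, 84.2 and 161 RPKM (log2 change -2.01, SE 0.25, adjusted p = 0.00186). Got1, the cytosolic aspartate aminotransferase, fell from 72.1, 111 and 157 to 28.5, 35.2 and 54.7 RPKM (log2 change -1.48, SE 0.29, adjusted p = 0.0106), and Sdsl from 14.2, 10.2 and 13.4 to 4.19, 5.61 and 4.99 RPKM (log2 change -1.19, SE 0.13, adjusted p = 0.00125). No A10-FMT library of these genes reached the HS range. Cps1, the entry enzyme of the urea cycle, was at 378, 527 and 941 RPKM in HS and 278, 249 and 333 in A10-FMT (log2 change -1.01, adjusted p = 0.0415, and -0.81 after median scaling, adjusted p = 0.119). Otc (log2 change 0.15, adjusted p = 0.321) and Arg1 (log2 change -0.24, adjusted p = 0.284) were not called. Gldc, which cleaves glycine in mitochondria, fell from 88.3, 63.8 and 82.3 to 39.6, 33.7 and 33.8 RPKM (log2 change -1.10, SE 0.13, adjusted p = 0.00145), and Slc25a22, a mitochondrial glutamate carrier, from 105, 113 and 105 to 53.98, 50.4 and 63.3 RPKM (log2 change -0.94, SE 0.11, adjusted p = 0.00134). Acmsd, which diverts tryptophan breakdown away from NAD synthesis, was at 6.39, 30.6 and 35.8 and 2.44, 2.87 and 3.96 RPKM (log2 change -2.34, SE 0.52, adjusted p = 0.0157), a call lost without A10-FMT replicate 2 or HS replicate 2 or 3 (adjusted p up to 0.056 over the alternatives). On the NAD list of 10 genes, Nampt and Nmrk1, the nicotinamide riboside kinase (log2 change 0.59, adjusted p = 0.0232), were higher.

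Of 25 antioxidant genes and targets of NRF2, the factor that induces detoxifying enzymes, 11 were called lower and 0 higher (median -0.40). After median scaling 4 were lower and 1 higher. Among all genes 14.7% were called lower, and 3.26% after median scaling. The lower calls were 12, 4 and 6 without A10-FMT replicates 1, 2 and 3 in turn and 10, 8 and 7 without HS replicates 1, 2 and 3. The largest decrease was in the glutathione transferase Gsta2, from 27.2, 33.98 and 83.4 to 10.1, 8.85 and 10.2 RPKM (log2 change -2.03, SE 0.41, adjusted p = 0.0115), whose reads can be shared with the similar Gsta1 (log2 change -1.72, adjusted p = 0.0137). Hmox1, which breaks down heme, fell from 18.1, 22.3 and 20.5 to 13.4, 11.1 and 7.78 RPKM (log2 change -0.88, SE 0.18, adjusted p = 0.0112), and Srxn1, a sulfiredoxin, by 0.98 (adjusted p = 0.0132) on the log2 scale. Gpx1, Cat, Sod1 and Sod2 were not called. Of 22 xenobiotic P450 genes and their regulators, Cyp2e1 was higher (4009.5, 3649.7 and 3014 against 6513, 6274 and 5701 RPKM, log2 change 0.80, SE 0.15, adjusted p = 0.00797), and Cyp3a11 (log2 change -1.55, adjusted p = 0.0299), Cyp2b10 (log2 change -1.40, adjusted p = 0.0449) and Cyp3a44 (log2 change -1.41, adjusted p = 0.0236) were lower, with sequence-similar relatives that could share reads.

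Of 12 growth hormone-dependent male liver genes, 2 were higher, Hsd3b5 (67.8, 76.3 and 125 against 226, 230.4 and 263 RPKM, log2 change 1.46, SE 0.23, adjusted p = 0.0043) and Mup21 (log2 change 1.18, adjusted p = 0.0291), and 1 lower, Cyp4a12b (log2 change -2.09, adjusted p = 0.037), which lost its call after scaling. The major urinary proteins, near-identical abundant secreted proteins, took 19.7% to 24.4% of all RPKM in HS and 25.3% to 37.1% in A10-FMT, and of 20 tested 4 were called higher and 1 lower (median 0.54). Of 22 genes of insulin, growth hormone and IGF signalling, the growth hormone receptor Ghr (log2 change 0.55, adjusted p = 0.0182) and Foxo1 (log2 change 0.29, adjusted p = 0.0476) were higher, and Irs2 (3.26, 3.54 and 4.65 against 1.43, 1.58 and 1.52 RPKM, log2 change -0.93, SE 0.18, adjusted p = 0.00866), Igfbp2 (log2 change -0.76, adjusted p = 0.0328) and Irs1 (log2 change -0.39, adjusted p = 0.0457) were lower. Igfbp2 and Irs1 lost their call after median scaling. Hamp, the iron hormone hepcidin, was the acute-phase member that rose (1993, 2531 and 2662 against 5009.9, 7878 and 3905 RPKM, log2 change 1.17, adjusted p = 0.0235), and of the other 23 acute-phase genes 1 was lower (Fgg, log2 change -0.54, adjusted p = 0.0457), a call lost whichever of the 10 libraries tried was left out. Of 18 immediate-early genes, Dusp1 (log2 change 1.23, adjusted p = 0.0132) and Maff (log2 change 1.04, adjusted p = 0.00866) were higher and Ier5 (log2 change -0.75, adjusted p = 0.02) lower. Beside the counts of these lists, 1.71% of all genes were called higher and 14.7% lower.

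Actin, tubulin and keratin filaments give cells their shape and carry transport. Of 23 actin, tubulin, keratin and associated genes, 14 were called lower and 0 higher (median -0.54), and 4 lower after median scaling (median -0.35). Here and for the lists below, 14.7% of all genes were called lower and 1.71% higher. Leaving out each A10-FMT replicate in turn gave 13, 5 and 7 lower calls, and each HS replicate gave 13, 8 and 7. Tubb2a (chromosome 13, 34074278 to 34078008), a beta-tubulin with a near-identical paralog, fell from 90.8, 95.5 and 129 to 14.4, 17.9 and 14.8 RPKM (log2 change -2.66, SE 0.36, adjusted p = 0.0022). Tubb4b fell by 0.96 (adjusted p = 0.00245) on the log2 scale and Tuba8 by 1.57 (adjusted p = 0.0257), while Actb (log2 change -0.51, adjusted p = 0.00866) and Krt18 (log2 change -0.70, adjusted p = 0.0193) lost their calls after scaling. Of 41 proteasome subunits, 12 were called lower and 0 higher, all by 0.43 or less on the log2 scale (Psmd4, log2 change -0.43, adjusted p = 0.00894). Their list median was -0.26, beside -0.16 for all genes, of which 14.7% were called lower. After median scaling 0 were called, and the list median was -0.07. Without A10-FMT replicates 1, 2 and 3 in turn 16, 1 and 3 were called lower, and 9, 3 and 4 were without HS replicates 1, 2 and 3. Of 80 cytosolic ribosomal proteins 2 were lower and 0 higher, of 75 mitochondrial ribosomal proteins 6 and 0 (1 lower without A10-FMT replicate 2 or HS replicate 2, 2 without A10-FMT replicate 3 or HS replicate 3, and 3 without Con replicate 3), and of 76 nuclear genes of oxidative phosphorylation 1 was lower (Cox5a, log2 change -0.27, adjusted p = 0.041) and 1 higher (Atp5k, log2 change 0.38, adjusted p = 0.0481). Of 18 splicing factors and cold-inducible RNA-binding proteins, 5 were lower, led by Srsf3 (log2 change -0.49, adjusted p = 0.00435), the member that remained called after scaling, where 14.7% of all genes were called lower. The count was 1 without A10-FMT replicate 2 or 3, HS replicate 2 or 3 or Con replicate 3, and 3 without A10-FMT replicate 1 or Con-FMT replicate 1. Of 11 cell cycle genes, Wee1 and Ccne1 (log2 change 0.82, adjusted p = 0.0222) were higher, and Ccnd1 (12.1, 13.5 and 12.9 against 5.79, 2.27 and 4.48 RPKM, log2 change -1.48, SE 0.32, adjusted p = 0.0139) and Mcm7 (log2 change -0.59, adjusted p = 0.0183) were among 3 lower. Of 14 glucocorticoid-responsive genes and metallothioneins 1 was higher (Nr3c1, log2 change 0.27, adjusted p = 0.046), of 12 heme genes 2 were lower, Hmox1 and Uros (log2 change -0.36, adjusted p = 0.0464), and of 7 sialyltransferases 2 were lower, St3gal1 and St6galnac6 (log2 change -0.45, adjusted p = 0.0169).

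**Figure D4:**
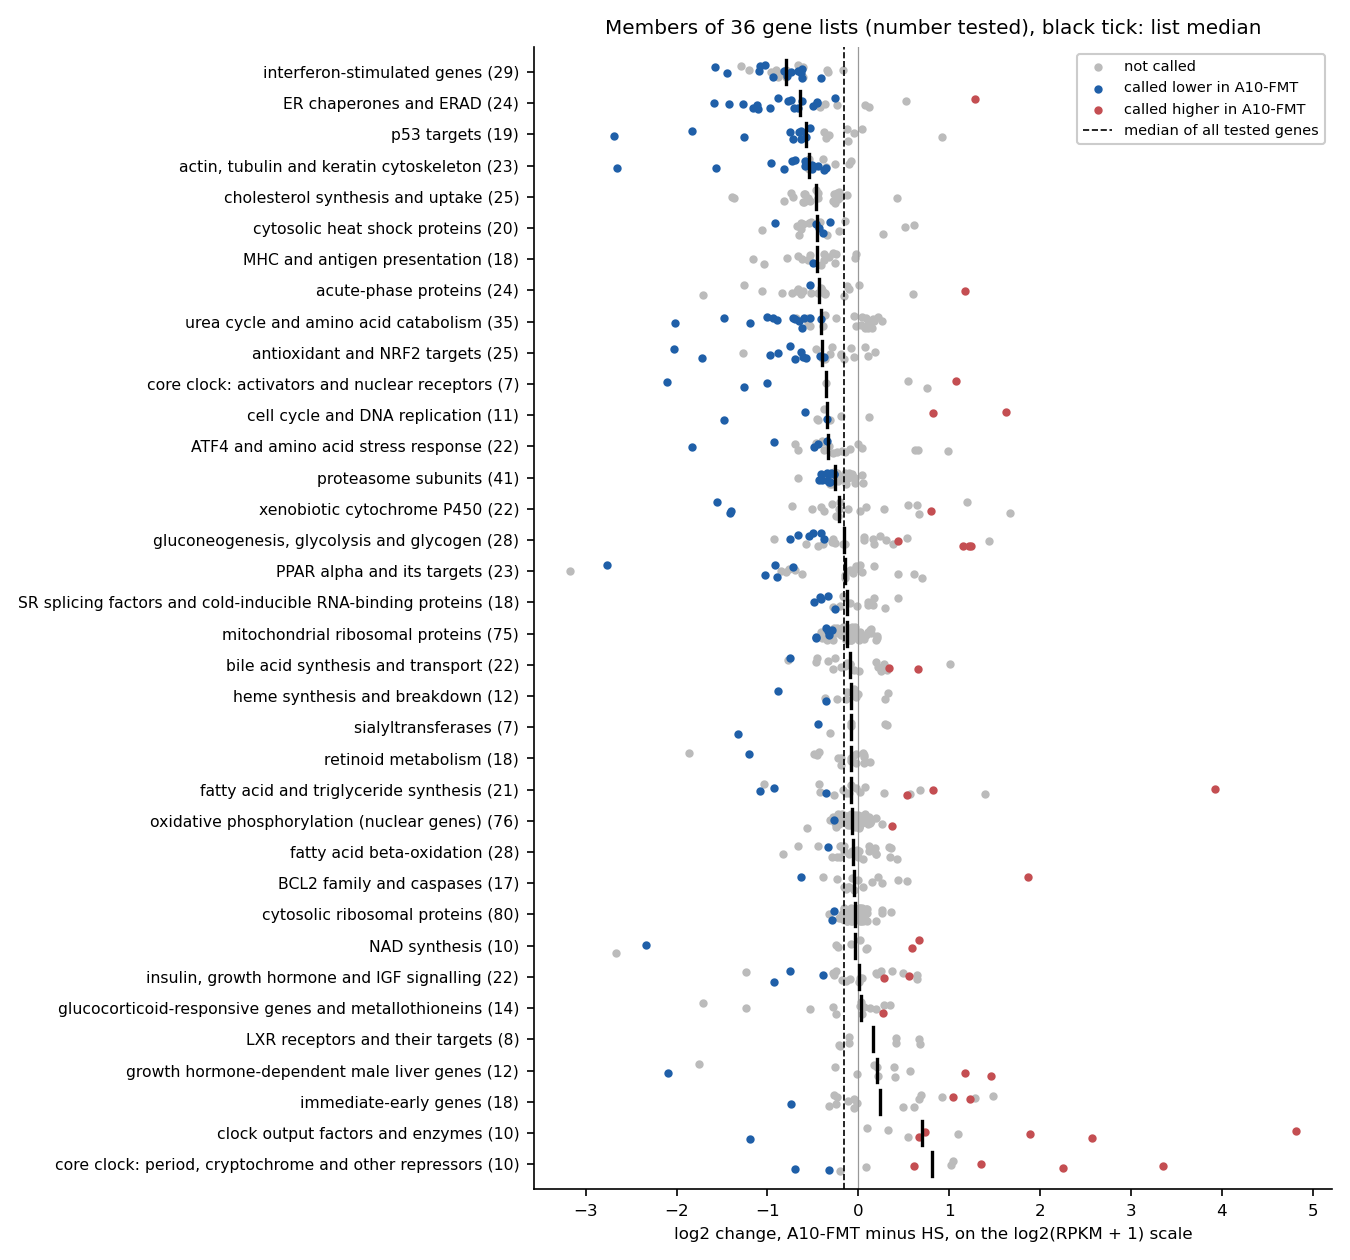
Each point is a tested member of 1 of 36 gene lists (rows, number tested in parentheses), placed by its log2 change, A10-FMT minus HS, on the x axis. Red and blue points are called higher and lower, black ticks are list medians and the dashed line is the median of all tested genes, -0.16. Interferon-stimulated genes have the lowest list median, -0.80, and clock repressors the highest, 0.81.

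Among genes on no list, 2 of the largest increases were in Rgs16 and Upp2. Rgs16 (chromosome 1, 153740353 to 153745468), a regulator of G protein signalling, rose from 2.37, 1.44 and 3.53 to 30.3, 37.9 and 31.2 RPKM (log2 change 3.35, SE 0.58, adjusted p = 0.0058). Upp2, the liver uridine phosphorylase, rose from 6.61, 19.6 and 32.8 to 158, 150.2 and 169.9 RPKM (log2 change 3.20, SE 0.42, adjusted p = 0.00204). Both were far above HS in each A10-FMT library. Col27a1, a fibrillar collagen chain, rose from 2.26, 3.95 and 2.67 to 10.7, 9.65 and 13.7 RPKM (log2 change 1.65, SE 0.19, adjusted p = 0.00145), and Coq10b, a coenzyme Q-binding protein, from 13.5, 18.5 and 11.9 to 33.9, 27.7 and 36.5 RPKM (log2 change 1.12, SE 0.14, adjusted p = 0.00175). Hcn3, an ion channel, was at 0.48 ± 0.291 RPKM in HS and 3.12 ± 0.789 in A10-FMT as mean and SD of 3 libraries (log2 change 1.48, SE 0.19, adjusted p = 0.00186), and Spata2l rose by 1.05 (SE 0.13, adjusted p = 0.00156). The groups did not overlap for any of these genes, which the rule for naming them requires.

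On the lower side, St3gal1 (chromosome 15, 67102875 to 67176946), a sialyltransferase of O-glycans, was at 28.8, 31.3 and 33.95 RPKM in HS and 10.7, 13.6 and 11.5 in A10-FMT (log2 change -1.33, SE 0.13, adjusted p = 8.78e-04). Pnp, a purine nucleoside phosphorylase with a close paralog, was at 39.8, 36.5 and 38.4 and 17.3, 20.3 and 19.9 RPKM (log2 change -0.96, SE 0.09, adjusted p = 8.78e-04). HS libraries were all above A10-FMT in these genes, with little spread within a group. Lower as well were the ubiquitin ligases Dtx4 (4.71, 4.84 and 4.90 against 1.66, 1.83 and 0.96 RPKM, log2 change -1.25, SE 0.13, adjusted p = 9.45e-04) and Trim2 (4.55, 3.75 and 3.93 against 2.05, 1.51 and 1.46 RPKM, log2 change -0.93, SE 0.10, adjusted p = 0.00107), the tyrosine phosphatase Ptpn9 (log2 change -0.84, adjusted p = 0.00134), and Htatip2 (log2 change -0.95, adjusted p = 0.00126) and Unc119b (log2 change -0.88, adjusted p = 0.00134). Acnat2, an acyl-CoA amino acid N-acyltransferase with a close paralog, fell from 23.3, 21.6 and 15.8 to 2.89, 3.73 and 3.54 RPKM (log2 change -2.26, SE 0.46, adjusted p = 0.0112). Cdc42ep5, an effector of the GTPase CDC42, was at 15.1, 33.99 and 22.1 and 2.00, 1.83 and 3.09 RPKM (log2 change -2.85, SE 0.62, adjusted p = 0.0147), a call lost without A10-FMT replicate 2 or HS replicate 2 (adjusted p up to 0.0544 over the alternatives).

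The study follows 13 genes in liver by name or by their protein. In mRNA, A10-FMT and HS differed in 1 of the 11 that could be tested, Bax, on the deposited scale, where 16.5% of all genes did. Many of the 13 were measured as protein in the study, which these mRNA values do not measure. It reports NR1H3, CYP7A1 and NR1H4 protein as lower in A10-FMT than in HS, and DHRS9 and RBP4 protein as higher. Cyp7a1, the rate-limiting enzyme of bile acid synthesis, was at 5.36, 45.7 and 22.5 RPKM in HS and 40.5, 34.8 and 37.4 in A10-FMT (log2 change 1.01, SE 0.56, adjusted p = 0.22). The HS libraries spread so widely that the 95% interval of the change ran from -0.22 to 2.24. Nr1h4, the bile acid receptor FXR, was at 70.8, 58.9 and 55.1 and 85.4, 80.7 and 64.5 RPKM (log2 change 0.31, SE 0.14, adjusted p = 0.14), and it passed the threshold after median scaling (log2 change 0.50, adjusted p = 0.0297). Nr1h3 (log2 change -0.20, SE 0.08, adjusted p = 0.116), Acaa1a (log2 change 0.36, adjusted p = 0.131), Acaa2 (log2 change 0.19, adjusted p = 0.416), Acox2 (log2 change -0.29, adjusted p = 0.167), Rbp4 (log2 change 0.06, adjusted p = 0.763) and Gpx1 (log2 change -0.05, adjusted p = 0.71) were not called. Dhrs9 was at 0.16, 0.28 and 0.09 RPKM in HS and 0.02, 0.02 and 0.02 in A10-FMT, and Bcl2 at 0.23, 0.36 and 0.19 and 0.18, 0.2 and 0.13, both under the expression minimum. In exact two-sided permutation tests of 3 libraries against 3, whose smallest possible p is 0.1, 4 of the 13 genes, among them Nr1h3, Dhrs9 and Bax, reached that value, or 0.325 after adjustment over the 13. That value is reached when the groups do not overlap, as they did not for 37.5% of all tested genes, so nothing is read from this count.

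A10-FMT was also tested directly against Con-FMT, the mice that received control microbiota. In this test 1401 genes (13.8%) passed, 493 (4.85%) with the higher level in A10-FMT and 908 (8.94%) with the lower, and 936 (9.21%) and 688 (6.77%) after median scaling. Without Con-FMT replicate 3 the counts were 457 and 696. Since A10-FMT enters both comparisons, their values are given side by side. Of the 34 genes named above for their adjusted p or the size of their change from HS, 9 also differed from Con-FMT on both scales, where 13.8% of all genes were called on the deposited scale. The genes were chosen by A10-FMT values that enter this comparison too, so nothing is read from that count or from the direction. Bmf, Wee1, Hcn3, Spata2l and Col27a1 were higher than in both groups, and Cdkn1a, St3gal1 and Pnp lower than in both. Coq10b was higher than in HS (log2 change 1.12, SE 0.14, adjusted p = 0.00175) and lower than in Con-FMT (log2 change -0.77, SE 0.14, adjusted p = 0.00584). Among the other genes named, Irs2 (log2 change -1.69, SE 0.18, adjusted p = 5.87e-04), Hmox1 (log2 change -1.43, SE 0.18, adjusted p = 0.00112) and Got1 (log2 change -1.46, SE 0.29, adjusted p = 0.00971), chosen here after their values were seen, were also lower than in Con-FMT. For Thrsp, Rgs16, Upp2, Usp2, Ciart, Dtx4 and Trim2 a difference from Con-FMT was not detected (for Thrsp 0.54, SE 0.67, adjusted p = 0.645, and for Trim2 0.19, SE 0.10, adjusted p = 0.219), while each was past the threshold against HS. Of 20 cytosolic heat shock proteins 14 were lower than in Con-FMT and 0 higher, and 12 lower after median scaling. Leaving out 1 library gave 5 (A10-FMT replicate 2), 7 (A10-FMT replicate 1 or Con-FMT replicate 1), 9 (Con-FMT replicate 2) and otherwise 10 to 16 lower. Of 24 acute-phase genes 14 were lower and 0 higher, and 9 lower after median scaling. Leaving out 1 library gave 6 (A10-FMT replicate 2), 7 (Con-FMT replicate 3), 8 (A10-FMT replicate 1 or 3 or Con-FMT replicate 2) and otherwise 10 to 14 lower. Of 14 glucocorticoid-responsive genes 9 were lower and 1 higher, and 7 lower after median scaling. Without A10-FMT replicate 2 the lower count was 5, and without 1 other library it was 6 to 9.

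**Figure D5:**
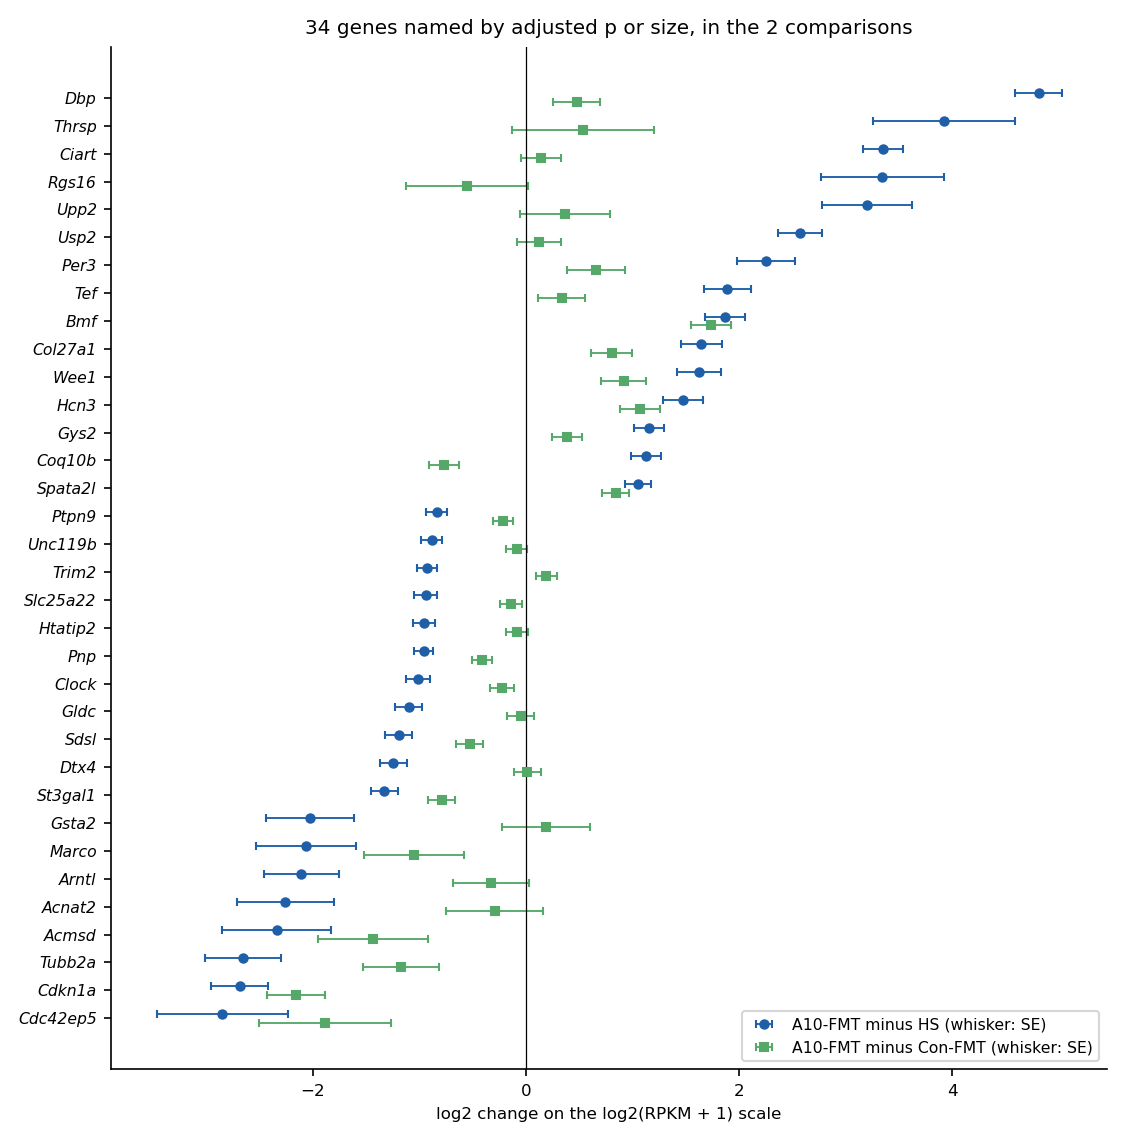
Each row is 1 of 34 genes, with its log2 change (log2(RPKM + 1) scale, x axis) for A10-FMT minus HS in blue and A10-FMT minus Con-FMT in green, and whiskers for SE. The blue values were used to choose the genes, and share the A10-FMT libraries with the green ones. Bmf lies at 1.87 and 1.74, Cdkn1a at -2.69 and -2.16 and Coq10b at 1.12 and -0.77.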

How the data were processed

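Liver mRNA was selected with oligo(dT) and sequenced on a HiSeq instrument, per the labels. The deposited table holds RPKM values, to 2 decimals, that the authors made from reads per gene. The submitters' processing notes name Bowtie 0.12.2 and mm10, whereas the study's methods name SOAPaligner, so the aligner is uncertain. Reads from near-identical genes can be split between copies by either. RPKM divides each gene by the reads of its library, so that abundant genes lower the values of all others. Of the symbols, 26 had become dates and 3 were repeated, and rows were kept as listed.

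The 12 libraries of Con, HS, A10-FMT and Con-FMT entered 1 fit on log2(RPKM + 1), so that all groups share an estimate of the spread. The filter kept genes whose mean reached 1 RPKM, and contrasts were tested with limma 3.58.1 in R 4.3.3, with a trend of the prior variance, and adjusted by the Benjamini-Hochberg method over all tested genes at 0.05. No covariate was used. Figures were drawn with matplotlib 3.10.9. The study's own test needs read counts and was not used here. Simulated data took each gene's mean from HS and its spread from all 12 libraries around their group means, with independent normal noise. A shift of 1 on the log2 scale was recovered for 180 of 200 genes, among 10159 genes, with 11 unchanged genes called. With nothing changed, 0 genes were called. The simulation held no shift in library composition and no correlation between genes, so it gives no error rate for the calls above.

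Named genes were the genes followed by the study in liver, the 12 genes per direction with the smallest adjusted p and the 8 with the largest change among those called on both scales without overlap, up to 4 called genes per list, and all clock genes. Further list members are named as examples, chosen after their values were seen, and the values of some genes are not reported here. The comparison, the 36 pathway lists and the 11 marker lists were chosen with earlier results of these data known. Coordinates and promoters are RefSeq GRCm38.p6. Alternatives varied the scaling, the pseudocount (0.1), the filter, the libraries in the fit, the threshold and a replicate block.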

Additional observations from a re-analysis of the deposited data

Results flagged for a closer look

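Of the 34 genes named for their adjusted p or the size of their change from HS, 9 also differed between A10-FMT and Con-FMT, 2 groups with the same diet and STZ and different donors, by limma on both scales (Benjamini-Hochberg over all tested genes, 3 libraries a group). Of all genes 13.8% were called between these groups on the deposited scale, and the 34 genes were chosen by A10-FMT values that enter this comparison too. Above Con-FMT in A10-FMT were Bmf by 1.74 (SE 0.19, adjusted p = 5.96e-04), Hcn3 by 1.07 (SE 0.19, adjusted p = 0.00516), Wee1 by 0.92 (SE 0.21, adjusted p = 0.0159), Spata2l by 0.84 (SE 0.13, adjusted p = 0.0025) and Col27a1 by 0.81 (SE 0.19, adjusted p = 0.0202), on the log2 scale. Lower were Cdkn1a at -2.16 (SE 0.27, adjusted p = 0.00116), St3gal1 at -0.79 (SE 0.13, adjusted p = 0.00349), Coq10b at -0.77 (SE 0.14, adjusted p = 0.00584) and Pnp at -0.41 (SE 0.09, adjusted p = 0.0154). Coq10b was the gene that lay above HS and below Con-FMT.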

How the results depend on the processing

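The number of genes called between A10-FMT and HS depended on the scaling. Against 1672 on the deposited scale it was 755 after quantile normalization, 727 after median scaling, 882 after scaling without the 10 most abundant genes and, chosen after seeing the data, 920 after scaling without the major urinary proteins. It was 846 with 6 libraries in the fit and 7 at the study's threshold. The genes called higher were 387, 396 and 4 under quantile normalization, median scaling and the study's threshold. The genes called lower were 368, 331, 705, 696, 712 and 3 under quantile normalization, median scaling, scaling without the 10 most abundant genes, scaling without the major urinary proteins, 6 libraries and the study's threshold. Leaving out 1 replicate gave 559 to 1761 called genes, 87 to 195 higher and 472 to 1572 lower, with A10-FMT replicate 2 giving the lowest. With median scaling as well, an alternative chosen after seeing the data, the total was 341, 364 and 447 without A10-FMT replicates 1, 2 and 3 and 727, 357 and 374 without HS replicates 1, 2 and 3. The lower calls were then 136, 167, 220, 351, 168 and 161 in that order, and the higher calls were 205, 197, 227, 376, 189 and 213. For A10-FMT against HS, leaving out Con replicate 3 or each Con-FMT replicate was also added after seeing the data, and so was Con replicate 3 for A10-FMT against Con-FMT. Between A10-FMT and Con-FMT, 1401 genes became 933 with a minimum of 5 RPKM, 687 with 6 libraries, 19 at the study's threshold and 608 to 1153 without 1 replicate.

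Of 602 values of 43 named genes under the alternatives, 574 kept direction and call, 17 lost and 4 gained the call and 7 changed sign, all in uncalled genes. Gpx1 was at 0.10, 0.14, 0.010 and 0.032 under quantile normalization, median scaling and scaling without the 10 most abundant genes or the major urinary proteins, and at -0.095 to 0.014 without 1 replicate. Rbp4 was at -0.14 under quantile normalization and -0.073 to 0.15 without 1 replicate. Of 473 list medians, 431 moved by less than the spread between replicates. The cause of these shifts was not tested.

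Same-numbered A10-FMT and HS libraries deviated with correlations of 0.161, -0.0933 and 0.212, and differently numbered ones with -0.270 to 0.142. With 3 libraries a group, these values cannot decide whether same-numbered samples were paired or shared a batch. With the replicate block 1147 genes were called, 130 higher and 1017 lower, and 1124 against Con-FMT. Read depth is unknown, so counting error could not be set beside low values.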
